A study of Mus musculus with 12 samples.

Results

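Mouse TH1 cells that had lost Itgav, which encodes the αv chain of integrins, were compared with TH1 cells that had kept it. Of the 12 RNA-seq libraries, the 6 TH1 libraries were compared (3 TH1 control against 3 TH1 Itgav KO), over the 8366 of 26202 gene symbols that reached 10 CPM (reads of a gene scaled to a common library total) in at least 3 of these 6 libraries. Control cells came from mice on a C57BL/6 background carrying Cd4-CreERT2, a Cre recombinase made in CD4 cells that becomes active with 4-hydroxytamoxifen, and KO cells from mice with that recombinase and Itgav fl/fl, so that the recombinase was shared by both genotypes. Splenic naïve CD4+ T cells were isolated by flow cytometry and cultured under TH1 conditions, with IL-12 and antibody to IL-4, and live CD4+ cells were sorted on day 5. The remaining 6 libraries are TH2 control and TH2 Itgav KO cells of the same mouse lines and day, used here for a comparison of the KO effect. Whether control and KO cultures for sequencing received the drug is not stated, nor are the ages of the mice. No gate on αv is named, so cells that kept Itgav may be among those sequenced. Labels number the libraries and name no mouse or culture, so the p-values reflect only how these libraries scatter, and that scatter may be technical.

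Integrins are receptors of an α and a β chain that bind extracellular matrix or other cells and pass signals in both directions across the membrane. The αv chain pairs with several β chains, β3 among them, and binds ligands such as vitronectin, fibronectin and osteopontin, as well as the latent form of TGF-β. TH1 cells are helper T cells directed by IL-12 and the transcription factor T-bet (Tbx21), and they are known for secreting interferon-γ, which activates macrophages. Renewed engagement of the T cell receptor in such cells induces immediate early genes, such as those of the Nr4a and Egr families, and the cytokine genes themselves.

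The 6 TH1 libraries held 7843579 to 13312234 reads in genes, so that 3 reads, the most that a gene at 0 could be expected to hide, were worth 0.225 to 0.383 CPM (counting error only). Levels are given in CPM, and a change is the log2 difference of CPM + 1, KO minus control, with its standard error (SE). Such a difference understates the change of low genes. A gene low in either group could be tested through the other group alone. A gene is "called" at an adjusted p below 0.05 in the moderated test of limma over all 8366 genes. Defining markers of CD4 T cells were present in each library (Cd4 at 2041 to 2525 CPM, Cd3e at 302 to 437 CPM), as were the TH1 markers Ifng, Il12rb2, Tbx21, Stat4 and Cxcr3. Gata3 lay at 9.32 to 28.5 CPM and Il4, Il5 and Il13 at no more than 5.99 CPM. The B cell gene Cd79a, the myeloid gene Lyz2, the NK cell genes Klrb1c and Ncr1 and the globin genes Hbb-bs and Hba-a1 were at 0 in all 6 libraries. The first principal component held 35.6% of the variance and placed the control libraries at −24.8 to −12.4 and the KO libraries at 13.8 to 23.9, while the second (21.0%) separated KO replicate 1 (−24.6) from KO replicate 2 (24.0). The ribosomal RNA repeat Rn45s took 11096 to 14880 CPM in control libraries against 7510 to 10706 CPM with the KO, and its part in the results was not tested.

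The targeted gene was examined in each library to check the labels. Itgav lay at 227, 228 and 154 CPM in the control and at 42.8, 21.3 and 28.1 CPM in the KO libraries. The lowest control library was far above the highest KO library, and the KO mean was 15.1% of the control mean (203 against 30.7 CPM, n = 3). The log2 difference was −2.72 (SE 0.22, adjusted p = 2.52e-08). The gene lies on chromosome 2 at 83724397 to 83806917 of GRCm38, and the value counts reads over the whole gene, including exons outside the deleted part. No library went against its label.

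Of 10 tested integrin chain genes, Itgav fell and Itgb7 rose, and the other 8 were not called. Over all tested genes 2.08% were called higher and 2.31% lower. Itgb7 encodes the β7 chain, which pairs with α4 or αE in lymphocytes. It was at 85.2, 99.98 and 84.6 CPM in control and 130, 138 and 180 CPM in KO libraries (log2 0.71, SE 0.16, adjusted p = 0.0103). The gene of the β3 partner chain, Itgb3, was low in TH1 cells, at 9.69, 13.9 and 7.67 CPM in control and 15.6, 13.0 and 23.1 CPM in KO libraries, and these values overlapped (log2 0.67, SE 0.38, adjusted p = 0.387). Among 18 genes of integrin adaptors and focal adhesion, Skap1, an adaptor that links the T cell receptor to integrin activation, was called higher (107, 99.98 and 106 CPM against 154, 161 and 182 CPM, log2 0.66, adjusted p = 8.46e-03). None of 9 tested genes on the list of RGD ligands of αvβ3 was called. The call of Itgb7 ended without KO replicate 3 (adjusted p = 0.093), and that of Skap1 without KO replicate 3 (0.0579) or control replicate 2 (0.0502).

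Across the 8366 genes, 367 were called (4.39%), 174 higher (2.08%) and 193 lower (2.31%) in KO cells. The log2 difference was positive for 4205 and negative for 4161 of them. Counts of calls and of positive differences in each list are to be read beside these. The control and KO libraries did not overlap for 1776 genes (21.2%), among them 364 of the called genes. Most changes were modest: 123 called genes moved by more than 1 on the log2 scale, and the log2 differences of all tested genes ran from −0.62 at the 5th to 0.62 at the 95th percentile with a median of 0.003. Leaving out control replicate 2 lowered the calls to 81 higher and 92 lower, leaving out control replicate 1 to 115 and 95, and leaving out KO replicate 3 to 103 and 142. With no trend of the variance on the level the calls numbered 17 higher and 21 lower. Of 89 called genes named by the rule for naming, 13 were called under all 16 alternatives tried, namely Itgav, Nr4a2, Rgs2, Ccl4, Timp1, Cd83, Inhba, Il21, Isg20, Ifi203, Slamf6, Igfbp4 and Fgl2. No called gene among the named changed direction under any of them, but most of the alternatives could not have shown such a change. Another filter, pseudocount, variance estimate or block, or a library left out, cannot reverse a gene whose groups do not overlap.

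**Figure D1:**
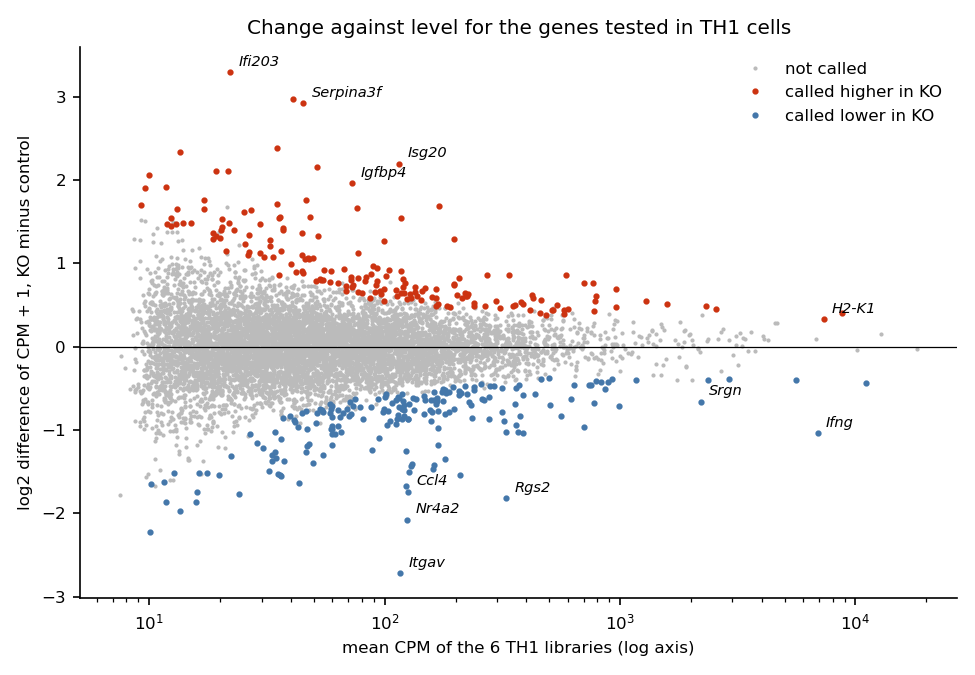
Each point is a gene of the 8366 tested, placed by its mean CPM over the 6 TH1 libraries (log axis) and its log2 difference of CPM + 1, KO minus control. The 174 genes called higher lie above 0 and the 193 called lower below it. Itgav, at −2.72, is among the lowest, and Ifng, at −1.04, lies among the highest mean levels on the right.

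The TH1 effector genes were compared to ask whether TH1 cells without αv kept their programme. Of 11 tested TH1 cytokine and chemokine genes, 6 fell and 1 rose, and the list median was −0.83 against 0.003 over all genes tested. Ifng, the defining TH1 cytokine gene, lay at 8190, 9985 and 9733 CPM in control and 4288, 4573 and 4708 CPM in KO libraries. The groups were far apart, and the KO mean was 48.6% of the control mean (9303 ± 972 against 4523 ± 214 CPM, SD, n = 3). The log2 difference was −1.04 (SE 0.09, adjusted p = 6.60e-08), and it was not called when the TH2 libraries entered the fit (adjusted p = 0.452). In bulk samples such as these, fewer cells expressing a gene and less RNA per cell cannot be told apart.

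The chemokine genes Ccl3 and Ccl4, whose products attract other leukocytes, fell together. Ccl4 was at 188, 206 and 188 CPM in control and 56.1, 54.3 and 62.0 CPM in KO libraries (log2 −1.74, SE 0.16, adjusted p = 9.07e-08). Ccl3 was at 181, 169 and 217 CPM in control and 85.2, 55.6 and 70.2 CPM in KO libraries (log2 −1.43, SE 0.17, adjusted p = 7.85e-06). In both genes each KO library lay well under the lowest control library. Il21, a cytokine that acts on B cells and CD8 T cells, was at 197, 174 and 200 CPM against 89.1, 67.7 and 59.7 CPM (log2 −1.40, SE 0.17, adjusted p = 5.91e-06). Csf2, the gene of GM-CSF, was at 20.9, 18.1 and 35.2 CPM against 8.29, 2.53 and 11.2 CPM (log2 −1.75, SE 0.44, adjusted p = 0.0202). Tnf was at 135, 147 and 182 CPM against 70.6, 95.4 and 93.6 CPM (log2 −0.83, SE 0.17, adjusted p = 3.97e-03). The member that moved the other way was Ltb, the membrane-bound lymphotoxin β, at 106, 89.7 and 148 CPM against 316, 234 and 285 CPM (log2 1.29, SE 0.17, adjusted p = 1.48e-05). The number of falling members was 5 or 6 whichever library was left out, 2 with all 12 libraries in the fit, and 4 with no filter or with no variance trend. The call of Csf2 ended without KO replicate 2 (adjusted p = 0.0771), control replicate 1 (0.0717) or control replicate 3 (0.137).

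Of 17 tested TH1 transcription factors and regulators, Tbx21 and Zeb2 fell, Id2 rose and 14 were not called, with a list median of 0.003. Shares over all genes were 2.08% called higher and 2.31% called lower. Tbx21 lay at 220, 253 and 272 CPM in control and 158, 177 and 161 CPM in KO libraries, without overlap (log2 −0.58, SE 0.13, adjusted p = 0.0103). Zeb2, a zinc finger repressor that T-bet induces in effector T cells, was at 84.7, 80.2 and 75.6 CPM against 46.7, 26.8 and 44.2 CPM (log2 −1.05, adjusted p = 5.30e-03). Id2, an inhibitor of E proteins, was at 169, 163 and 181 CPM against 314, 279 and 216 CPM (log2 0.64, adjusted p = 8.32e-03). Runx3, a partner of T-bet, overlapped between the genotypes, at 383, 428 and 416 CPM against 368, 455 and 410 CPM (log2 0.003, SE 0.12, adjusted p = 0.993). Without control replicate 2 the calls of Tbx21 (adjusted p = 0.0608) and Id2 (0.0515) ended, and that of Tbx21 also without control replicate 3 (0.0595). With all 12 libraries in the fit, with no filter or with no variance trend, 0 genes of the list were called, Zeb2 included.

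**Figure D2:**
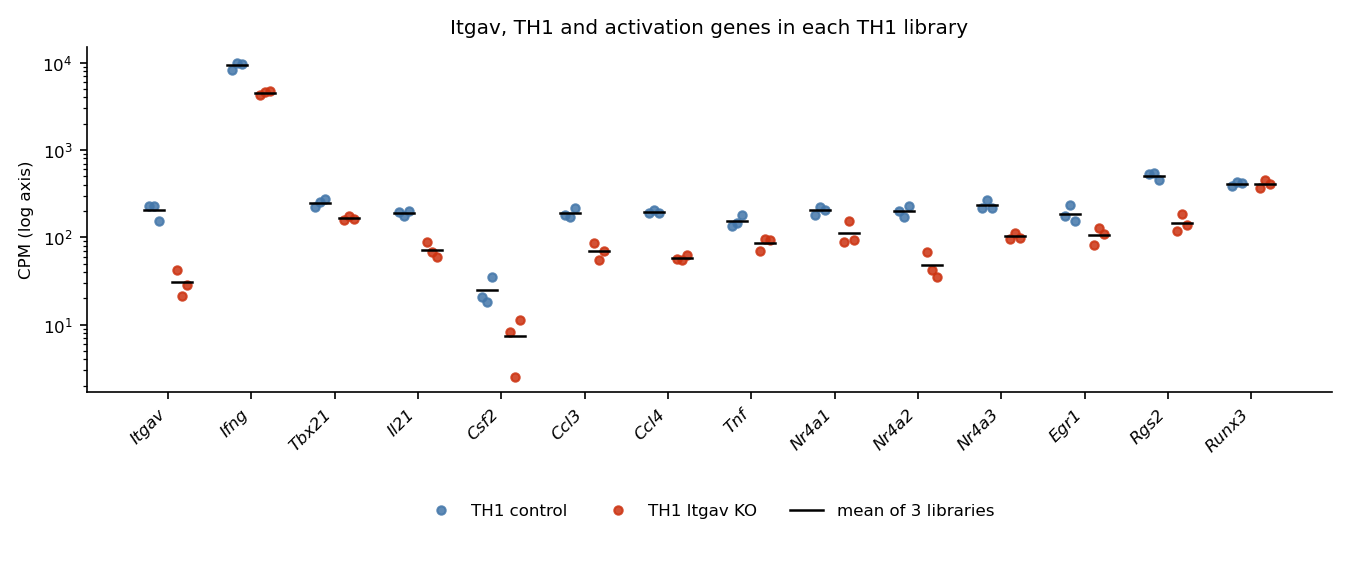
The CPM of 14 genes (log axis) in the 3 TH1 control libraries (blue) and the 3 TH1 Itgav KO libraries (red), with the group mean as a black bar. In 13 genes, from Itgav to Rgs2, each KO point lies below each control point, as for Ifng at 8190 to 9985 CPM against 4288 to 4708 CPM, while for Runx3 the groups overlap. The 13 were picked among genes called lower, and nearly all called genes lack overlap. Over all 8366 tested genes 21.2% had no overlap.

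Receptor and granule genes were described in the same way, against 2.08% called higher and 2.31% called lower over all genes. Of 15 tested genes of the IL-12, IL-18, IL-27 and interferon-γ receptors, Il27ra rose (64.4, 63.2 and 57.4 CPM against 96.2, 126 and 120 CPM, log2 0.87, adjusted p = 3.90e-03). Il12rb2, the inducible chain of the IL-12 receptor, fell from 2685, 3137 and 2282 CPM to 2180, 2058 and 1880 CPM (log2 −0.40, adjusted p = 0.0265). Among 8 chemokine receptor genes, Ccr7, which guides T cells to lymph nodes, fell from 1169, 1233 and 1290 CPM to 774, 784 and 706 CPM (log2 −0.70, SE 0.10, adjusted p = 4.66e-05). S1pr1, the receptor for exit from lymph nodes, was also called lower (log2 −0.75) and Ccr4 called higher (log2 1.23). Of 11 cytotoxic granule genes, Serpinb9, an inhibitor of granzyme B, fell from 182, 172 and 169 CPM to 73.9, 67.0 and 76.6 CPM (log2 −1.25, adjusted p = 8.52e-06). Srgn, the proteoglycan that packs granule contents, fell by 0.66 on the log2 scale from a control mean of 2696 CPM, and Ctsw (cathepsin W) rose by 0.80. The call of Il12rb2 ended without KO replicate 2 or 3 or control replicate 1 or 2 (adjusted p of 0.0777 to 0.225). The calls of S1pr1, Ccr4 and Ctsw each ended without at least 3 of the 6 libraries, control replicates 1 and 2 among them (adjusted p of 0.0505 to 0.287).

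Of 29 tested activation and immediate early genes, 8 fell, none rose and 21 were not called, 8 of the 29 had a positive difference, and the list median was −0.41. The falling genes numbered 3 with all 12 libraries in the fit, 3 with no filter and 2 with no variance trend. The Nr4a genes encode orphan nuclear receptors whose transcription follows T cell receptor signals within the hour. Nr4a2 lay at 201.1, 172 and 229 CPM in control and 67.7, 42.1 and 35.1 CPM in KO libraries (log2 −2.07, SE 0.20, adjusted p = 2.65e-07). Nr4a3 lay at 214, 269 and 218 CPM against 96.2, 112 and 98.9 CPM (log2 −1.18, SE 0.15, adjusted p = 9.86e-06), and Nr4a1 at 182, 222 and 207 CPM against 89.4, 155 and 92.7 CPM (log2 −0.90, SE 0.18, adjusted p = 3.06e-03). For all 3 family members the highest KO library lay under the lowest control library, and 364 of the 367 called genes likewise had no overlap. Egr1, a zinc finger factor of the same early wave, was at 174, 233 and 154 CPM against 81.7, 128 and 110 CPM (log2 −0.81, SE 0.18, adjusted p = 7.08e-03), and Spry1, a brake on Ras signalling, was at 43.0, 45.9 and 31.7 CPM against 15.9, 18.1 and 17.9 CPM (log2 −1.16, adjusted p = 0.0137). Leaving out control replicate 2 reduced the list to 5 falling genes, with Egr1 (adjusted p = 0.0874), Spry1 (0.104) and Dusp4 (0.116) no longer called, while 11 fell without KO replicate 1. The call of Spry1 also ended without control replicate 1 (0.0936).

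The promoters of the 3 Nr4a genes are shown because the family fell together. Each line gives the 250 bases before the transcription start (RefSeq, GRCm38.p6), 5′ to 3′ on the strand of the gene, with capitals marking the core of the cAMP response element, TGACG, on either strand (TGACG or CGTCA). Nr4a1 is at chr15:101266596-101266845 (plus strand), Nr4a2 at chr2:57124004-57124253 (minus strand) and Nr4a3 at chr4:48045055-48045304 (plus strand).
Nr4a1: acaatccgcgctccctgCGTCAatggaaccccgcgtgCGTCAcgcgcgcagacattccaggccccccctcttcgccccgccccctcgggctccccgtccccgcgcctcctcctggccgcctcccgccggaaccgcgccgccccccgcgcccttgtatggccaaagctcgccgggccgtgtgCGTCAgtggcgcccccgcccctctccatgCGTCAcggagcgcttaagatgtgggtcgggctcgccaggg
Nr4a2: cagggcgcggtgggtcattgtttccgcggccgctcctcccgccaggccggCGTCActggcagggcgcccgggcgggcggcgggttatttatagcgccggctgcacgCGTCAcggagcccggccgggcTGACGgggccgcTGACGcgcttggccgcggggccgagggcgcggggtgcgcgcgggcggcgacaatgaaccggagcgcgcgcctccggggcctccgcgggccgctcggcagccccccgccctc
Nr4a3: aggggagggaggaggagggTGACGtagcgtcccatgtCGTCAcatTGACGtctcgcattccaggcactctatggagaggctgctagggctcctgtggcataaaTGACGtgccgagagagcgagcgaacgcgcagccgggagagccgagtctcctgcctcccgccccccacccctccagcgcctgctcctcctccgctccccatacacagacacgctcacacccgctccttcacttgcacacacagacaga
Each window held 4 such cores, at 40 to 233 bases before the start in Nr4a1, 111 to 200 in Nr4a2 and 147 to 231 in Nr4a3. The motif was chosen with the changes of these genes known, and it is common. Over the 300 bases from 250 before to 50 after the start, it was present in 23.1% of all 27025 genes with a promoter sequence and in 38.8% of the 6815 tested genes with one, against 41.6% of the 154 called lower and 22.9% of the 140 called higher that had a sequence.

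Among the largest falls by the rule for naming, Rgs2, Cd83 and Mir155hg belong to no list used here. Rgs2, which shortens signalling by G proteins, was at 535, 543 and 450 CPM in control and 119, 183 and 137 CPM in KO libraries (log2 −1.81, SE 0.14, adjusted p = 2.52e-08). Cd83, a surface protein of activated lymphocytes, was at 58.8, 76.0 and 62.4 CPM against 26.6, 16.3 and 19.3 CPM (log2 −1.64, SE 0.25, adjusted p = 1.60e-04). Mir155hg, the transcript that carries the microRNA miR-155, was at 65.7, 31.9 and 17.3 CPM against 10.6, 4.46 and 14.9 CPM (log2 −1.77, adjusted p = 0.0151). The spread within the control group was wide for Mir155hg, and its call ended without control replicate 1 (adjusted p = 0.209), control replicate 2 (0.0606) or KO replicate 2 (0.0653).

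Of the 4 mTOR-regulated genes that the study named on these samples, Egr1 and Nr4a1 were called lower. That choice makes their direction no independent evidence. Bcl2a1b, a survival gene with near-identical copies in the genome whose reads could be shared among them, was at 67.1, 62.4 and 83.2 CPM in control and 60.2, 35.9 and 42.6 CPM in KO libraries and was not called (log2 −0.63, adjusted p = 0.110). Egfr was under the filter, at 4.32 to 7.40 CPM in control and 0.101 to 7.19 CPM in KO libraries. None of 28 genes of PI3K and mTOR components was called (median −0.07). Of these, Pik3cd lay at 423 to 560 CPM in control and 587 to 662 CPM in KO libraries (log2 0.31, adjusted p = 0.156), and Ddit4 overlapped between the groups.

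Among 30 genes of T cell receptor signalling, Rasgrp1 rose and Cblb and Cd28 fell, with a list median of 0.12. The shares of all genes called were 2.08% higher and 2.31% lower. Rasgrp1, which activates Ras below the receptor, was at 264, 225 and 232 CPM in control and 428, 434 and 441 CPM in KO libraries (log2 0.85, SE 0.12, adjusted p = 4.15e-05). Cblb, a ubiquitin ligase that restrains the receptor, was at 830, 761 and 576 CPM against 414, 433 and 357 CPM (log2 −0.83, SE 0.13, adjusted p = 1.46e-04). Of 14 genes of the CD28 family and inhibitory checkpoints, 3 fell and 1 rose, with a median of −0.44. Cd200 fell from 163, 148 and 126 CPM to 90.3, 68.8 and 79.9 CPM (log2 −0.86, adjusted p = 2.46e-03), and Ctla4 (log2 −0.60) and Cd28 (log2 −0.50), which encode receptors competing for the same ligands, were called lower. Vsir, the checkpoint VISTA, was called higher (78.2, 68.7 and 68.0 CPM against 101.1, 161 and 133 CPM, log2 0.85, adjusted p = 5.56e-03). Of 18 IL-2 and STAT5 targets, Stat5a (log2 −0.68), Ccnd2 (log2 −0.42) and Il2ra (log2 −0.40) were called lower, and the median was −0.003. Il2ra, the high-affinity chain of the IL-2 receptor, was at 6512, 6983 and 5650 CPM in control and 4958, 4672 and 4804 CPM in KO libraries. The calls of Ctla4, Cd28, Stat5a, Ccnd2 and Il2ra each ended without at least 2 of the 6 libraries (adjusted p of 0.0537 to 0.163), and 1 member of the IL-2 list was left without KO replicate 2, control replicate 1 or control replicate 2.

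**Figure D3:**
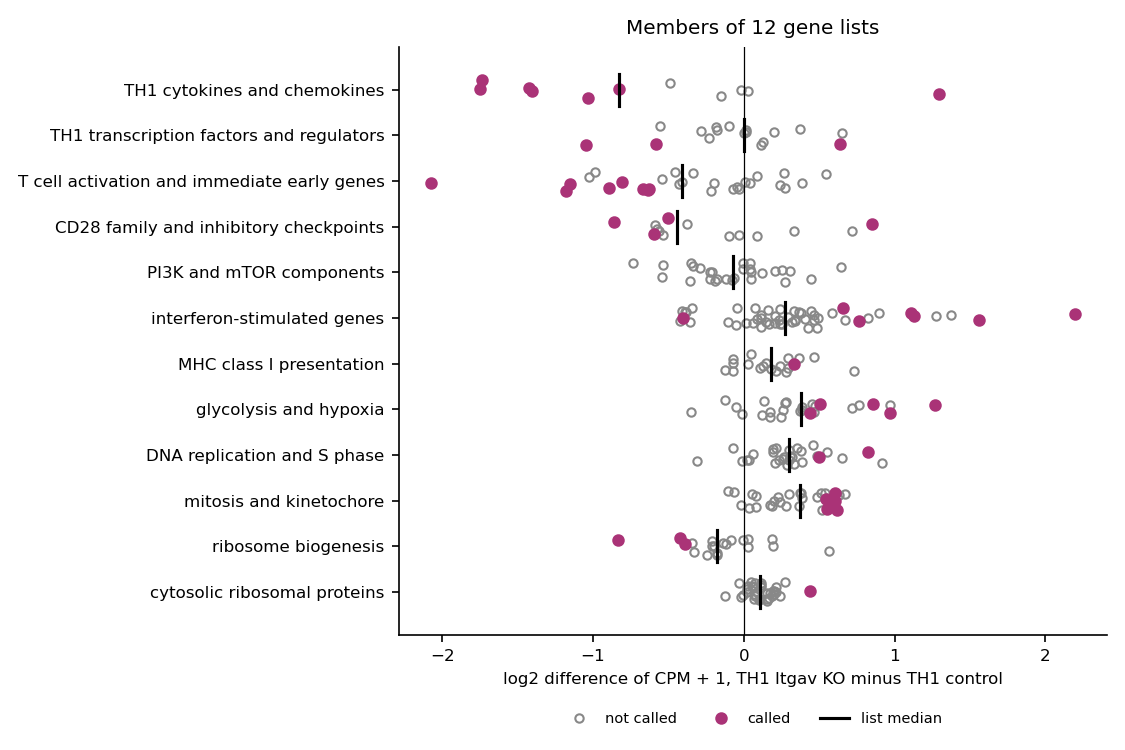
Each circle is a tested gene of 1 of 12 lists, placed by its log2 difference of CPM + 1, KO minus control, with filled circles for called genes and a black bar at the list median. TH1 cytokines and chemokines (median −0.83) and immediate early genes (−0.41) lie to the left, and glycolysis (0.38) and mitosis genes (0.37) to the right. Vertical scatter within a list carries no value.

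Of 52 tested interferon-stimulated genes, 6 rose, 1, Samhd1, fell and 45 were not called, 42 had a positive difference, and the median was 0.28. Of all 8366 genes, 4205 had a positive difference. With all 12 libraries in the fit, with no filter or with no variance trend, 1 was called higher and 0 lower. Isg20, an exonuclease that degrades single-stranded RNA, lay at 40.5, 29.8 and 54.6 CPM in control and 182, 208 and 178 CPM in KO libraries. The KO mean was 4.54 times the control mean (log2 2.20, SE 0.20, adjusted p = 7.96e-08). Irf7, the factor that amplifies type I interferon, was at 26.9, 12.9 and 35.3 CPM against 74.6, 84.2 and 55.0 CPM (log2 1.56, SE 0.29, adjusted p = 1.66e-03). Slfn1, a Schlafen family gene, was at 63.5, 27.6 and 57.4 CPM against 128, 109 and 78.0 CPM (log2 1.13, adjusted p = 7.76e-03), and Dhx58, an RNA sensor, was at 28.7, 18.4 and 36.9 CPM against 70.0, 42.3 and 69.7 CPM (log2 1.11, adjusted p = 0.0155). Control replicate 2 was the lowest library for Isg20, Irf7, Slfn1 and Dhx58, and without it 3 of the 52 genes were called higher, while 11 were without control replicate 3. Slfn1 (adjusted p = 0.0683) and Dhx58 (0.117) were no longer called without control replicate 2, and Dhx58 also not without KO replicate 1 (0.0662) or KO replicate 3 (0.0861). The call of Samhd1 (log2 −0.40) ended without KO replicate 3, control replicate 1 or control replicate 2 (0.0654 to 0.124). Of 19 genes of MHC class I presentation, H2-K1 was called higher (5982 to 7212 CPM against 7657 to 8707 CPM, log2 0.34, adjusted p = 0.0278), with 15 positive differences. H2-K1 has near-identical relatives, its level is uncertain for that reason, and its call ended without KO replicate 2, control replicate 1 or control replicate 2 (adjusted p of 0.1 to 0.188).

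The largest rises by the rule for naming included 2 genes of the Ifi200 family, interferon-inducible proteins that bind DNA, and a gene near them on chromosome 1. Ifi203 lay at 4.59, 1.13 and 5.20 CPM in control and 48.9, 34.4 and 38.4 CPM in KO libraries (log2 3.30, SE 0.43, adjusted p = 1.63e-05). Ifi206 lay at 19.6, 8.49 and 32.3 CPM against 96.6, 82.8 and 69.2 CPM (log2 2.15, SE 0.32, adjusted p = 1.14e-04). Slamf6, a receptor of the SLAM family that binds itself on neighbouring lymphocytes, lay at 8.42, 4.43 and 14.9 CPM against 68.8, 67.4 and 81.8 CPM (log2 2.98, SE 0.33, adjusted p = 2.04e-06). In all 3 genes the lowest KO library was above the highest control library, which the rule for naming required. Ifi203 and Slamf6 passed the filter of 10 CPM only because the KO libraries reached it. The stretch from the start of Slamf6 to the end of Ifi203, 2.03 Mb of chromosome 1 (171917462 to 173942672), was singled out after these values were seen. It held 15 tested genes, of which 5 were called higher and none lower. The others called were Mndal, at 40.2, 22.99 and 48.4 CPM in control and 127, 111 and 107 CPM in KO libraries (log2 1.66, adjusted p = 3.85e-05), and Ifi209, at 21.3, 9.39 and 24.5 CPM against 64.9, 52.4 and 40.3 CPM (log2 1.54, adjusted p = 3.94e-03). Among the other family members were Ifi204 (log2 0.54) and Ifi211 (log2 0.43), which were not called, as were Aim2 and the 7 genes next to Slamf6. Members of the Ifi200 family are similar in sequence, so reads of single members are uncertain.

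**Figure D4:**
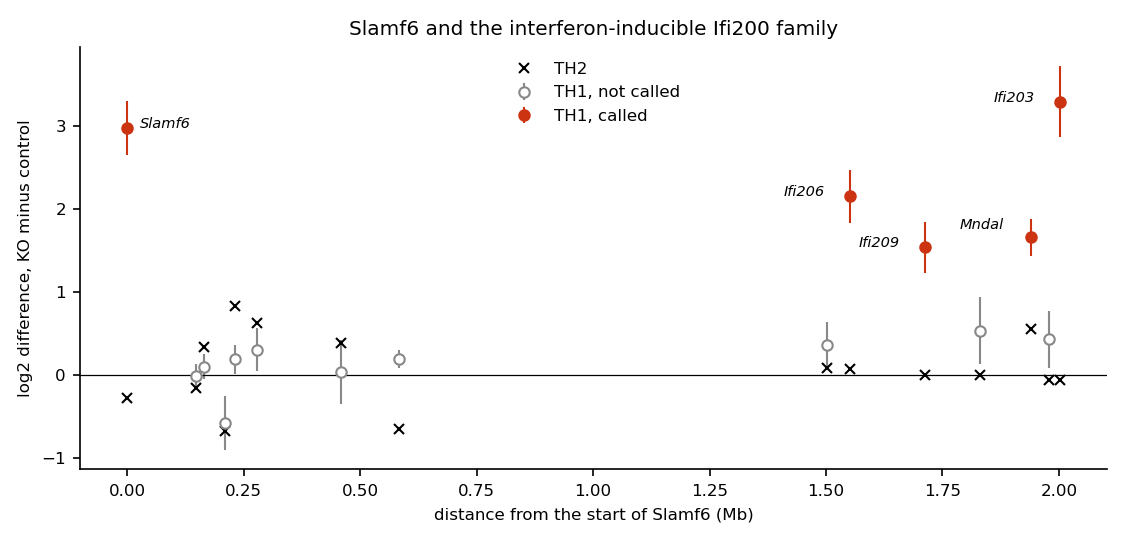
The log2 difference of CPM + 1, KO minus control, of the 15 tested genes from Slamf6 to Ifi203, by distance from the start of Slamf6 in Mb. Circles with standard errors are TH1 cells (filled where called) and crosses are TH2 cells. The 5 called genes lie at 1.54 to 3.30 in TH1 cells, and the same genes at −0.27 to 0.56 in TH2 cells. A gene with almost no reads in TH2 cells would also lie near 0 there, as Ifi209 does (0.0). TH2 levels of the called genes other than Slamf6 are not given here, so their TH2 values do not show that an effect was absent. The difference between the subsets was called for Slamf6 only (adjusted p = 0.0303, against 0.0732 to 0.563 for the others).

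The interferon-stimulated response element, searched on both strands as GAAA, any 2 bases and GAAA again, was found within 250 bases before to 50 bases after the start in 19 of the 39 tested interferon-stimulated genes with a promoter sequence (48.7%). It was found in 9 of 140 genes called higher (6.43%), 8 of 154 called lower (5.19%), 3.83% of the 6815 tested genes and 3.99% of all 27025 genes with a promoter sequence. Among the 9 were Ifi203, Ifi206 and Mndal, as well as Gbp7, a guanylate-binding protein gene of the interferon list (log2 0.77, adjusted p = 2.07e-04). Of the 6 genes of the interferon list called higher, 5 had a promoter sequence. The element was found in 2 of these 5, Ddx58 and Gbp7, and not in Isg20, Irf7 or Slfn1. The call of Ddx58 (log2 0.66) ended on leaving out any single library (adjusted p of 0.0574 to 0.12). For Ifi203, Ifi206, Mndal and Gbp7 the 250 bases before the start are shown with the element in capitals (RefSeq, GRCm38.p6). They run 5′ to 3′ on the strand of the gene. Ifi203 is at chr1:173942493-173942742, Ifi206 at chr1:173491319-173491568 and Mndal at chr1:173879959-173880208 on the minus strand, and Gbp7 is at chr3:142530086-142530335 on the plus strand.
Ifi203: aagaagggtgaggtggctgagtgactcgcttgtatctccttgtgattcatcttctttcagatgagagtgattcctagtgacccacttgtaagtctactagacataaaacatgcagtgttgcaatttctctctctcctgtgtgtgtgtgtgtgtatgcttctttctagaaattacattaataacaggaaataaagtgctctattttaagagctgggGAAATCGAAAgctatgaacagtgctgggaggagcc
Ifi206: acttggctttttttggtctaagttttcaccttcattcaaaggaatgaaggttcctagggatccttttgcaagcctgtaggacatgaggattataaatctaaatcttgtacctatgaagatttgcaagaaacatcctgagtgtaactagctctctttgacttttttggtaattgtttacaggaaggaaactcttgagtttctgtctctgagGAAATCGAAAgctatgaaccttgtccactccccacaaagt
Mndal: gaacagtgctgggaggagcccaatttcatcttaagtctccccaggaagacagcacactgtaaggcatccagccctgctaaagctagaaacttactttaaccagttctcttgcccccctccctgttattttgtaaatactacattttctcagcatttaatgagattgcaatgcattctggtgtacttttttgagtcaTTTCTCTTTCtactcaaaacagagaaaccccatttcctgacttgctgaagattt
Gbp7: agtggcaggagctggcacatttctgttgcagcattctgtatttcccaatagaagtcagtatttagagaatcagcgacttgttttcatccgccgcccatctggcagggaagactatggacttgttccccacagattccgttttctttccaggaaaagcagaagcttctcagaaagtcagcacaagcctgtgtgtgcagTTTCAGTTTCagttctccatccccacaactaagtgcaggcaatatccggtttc
The element begins 35 bases before the start in Ifi203, 40 in Ifi206, 54 in Mndal and 53 in Gbp7. Ifi203 and Ifi206 hold the same letters, GAAATCGAAA, while Mndal and Gbp7 hold the element on the opposite strand. For Ifi203 and Mndal this was 1 of 2 annotated starts, and the start with the most matches was the one shown. A gene counted as holding a motif if any of its annotated starts did. An AP-1 site (TGANTCA) was also searched and was found in 12.9% of promoters of genes called higher, 8.44% of those called lower, 5.74% of those tested and 8.97% of all, and the Egr site was found in 1 of 140, 0 of 154, 1.32% of those tested and 0.71% of all. These motifs, too, were chosen with the results known.

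Genes that separate naïve and memory from effector T cells did not move together. Of 19 tested, 2 rose and 4 fell. Ly6c2, the gene of a surface antigen of effector and memory T cells, was at 79.4, 49.3 and 122 CPM in control and 296, 225 and 249 CPM in KO libraries (log2 1.69, SE 0.21, adjusted p = 1.04e-05). Its neighbour Ly6c1 is nearly identical and was the other member to rise, so the level of each is uncertain. The call of Ly6c1 ended without control replicate 2 (adjusted p = 0.0651). Bach2, a repressor of effector genes, was at 133, 122 and 118 CPM against 60.9, 67.5 and 89.5 CPM (log2 −0.78, adjusted p = 8.46e-03), a call that ended without control replicate 1 (adjusted p = 0.0588). Of 19 TNF family genes, Ltb and Tnfrsf18 (log2 0.40) were called higher and Tnf and Tnfsf8 (log2 −1.11) lower. The call of Tnfrsf18 ended on leaving out any library but KO replicate 1 (adjusted p of 0.0509 to 0.156), and that of Tnfsf8 without KO replicate 3, control replicate 1 or control replicate 3 (0.0536 to 0.0781).

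Of 13 genes of the TGF-β and activin pathway, into which αv integrins feed by releasing latent TGF-β, 2 fell and 1 rose. Inhba, which encodes the subunit of activin A, was at 270, 246 and 255 CPM in control and 81.6, 130 and 95.6 CPM in KO libraries (log2 −1.34, SE 0.16, adjusted p = 5.54e-06). Skil, the SMAD repressor SnoN, was at 87.1, 73.9 and 76.7 CPM against 41.1, 34.2 and 46.8 CPM (log2 −0.95, adjusted p = 5.84e-03). Lrrc32 encodes GARP, which holds latent TGF-β on the cell surface, and was at 7.52, 8.26 and 2.82 CPM against 22.2, 20.7 and 17.5 CPM (log2 1.65, adjusted p = 0.0222). With each control library under 10 CPM, Lrrc32 was tested only because the KO libraries reached the filter. The call of Lrrc32 ended without any KO replicate or control replicate 3 (adjusted p of 0.053 to 0.103), and that of Skil without control replicate 1 (0.0509).

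Markers of other helper T cell fates were called in both directions, against 2.08% called higher and 2.31% called lower over all genes. Il4 was at 1.13 to 5.99 CPM in control and 0.715 to 2.43 CPM in KO libraries, Il13 at 0 to 3.88 against 0.179 to 0.455 CPM, and Il5 at no more than 0.225 CPM. Gata3 was at 14.2, 9.32 and 15.8 CPM against 16.0, 28.5 and 21.7 CPM (log2 0.71, SE 0.35, adjusted p = 0.301). Of the 2 TH2 cytokine genes tested, Il24 was called lower (log2 −0.65). Of 10 TH2 identity genes, Pparg was called higher (8.93, 6.69 and 7.14 CPM against 30.5, 17.6 and 31.5 CPM, log2 1.65, adjusted p = 8.32e-03), as was Ccr4. Pparg was under 10 CPM in each control library and was tested only because the KO libraries reached the filter. Of 5 TFH genes Il21 fell. Of 7 Treg genes, Lrrc32 and Tnfrsf18 were called higher, Ctla4 and Il2ra lower, and 3 were not called. Rora, the 1 tested TH17 gene, was not called. The call of Pparg ended without KO replicate 3 (adjusted p = 0.0618) and that of Il24 without KO replicate 1, control replicate 1 or control replicate 2 (0.136 to 0.165).

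Of 26 tested genes of glycolysis and hypoxia, 5 rose, none fell and 21 were not called, 22 had a positive difference, and the median was 0.38. The rising genes numbered 1 with all 12 libraries in the fit and 0 with no filter or with no variance trend. Slc2a3, a glucose transporter, was at 79.9, 65.6 and 31.5 CPM in control and 89.5, 150 and 177 CPM in KO libraries (log2 1.27, adjusted p = 4.63e-03). Pdk1, the kinase that keeps pyruvate out of the mitochondria, was at 61.3, 71.7 and 48.2 CPM against 103, 120 and 132 CPM (log2 0.97, adjusted p = 2.16e-03). Egln3, an oxygen-sensing hydroxylase, was at 216, 216 and 147 CPM against 266, 441 and 350 CPM (log2 0.86, adjusted p = 2.52e-03), and Slc2a1, the main glucose transporter of activated T cells, was at 324, 307 and 322 CPM against 394, 529 and 441 CPM (log2 0.51, adjusted p = 0.0138). KO replicate 1 was the lowest KO library for Slc2a3, Pdk1, Egln3 and Slc2a1. Without it 9 members were called higher and 1 lower, and without KO replicate 2 there were 3 higher. Slc2a1 was not called without KO replicate 2 (adjusted p = 0.115) or control replicate 2 (0.0739).

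Of 30 tested genes of mitosis and the kinetochore, 5 rose, none fell and 25 were not called, 27 had a positive difference and the median was 0.37. Top2a, the topoisomerase of dividing cells, was at 597, 587 and 711 CPM in control and 1037, 929 and 814 CPM in KO libraries (log2 0.55, SE 0.11, adjusted p = 3.94e-03). Ccna2, cyclin A2, was at 167, 171 and 188 CPM against 307, 235 and 264 CPM (log2 0.60, SE 0.13, adjusted p = 8.27e-03). Ccnb2 (log2 0.61) and the spindle gene Nusap1 (log2 0.62) were called as well. Of 29 genes of DNA replication and S phase, Pold1 (log2 0.82) and Mcm6 (log2 0.50) were called higher, 27 were not called, and 26 had a positive difference. In both lists 0 genes were called with all 12 libraries in the fit, with no filter or with no variance trend. Leaving out control replicate 1 or 2 reduced the mitosis calls to 2 and 3, and without control replicate 2 or KO replicate 1 no replication gene was called. Ccnb2 and Nusap1 were not called without control replicate 1 (adjusted p = 0.0509 and 0.102), and Pold1 and Mcm6 were not without control replicate 2 (0.16 for both) or KO replicate 1 (0.101 and 0.132).

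The remaining lists on metabolism and biosynthesis are given against 2.08% called higher and 2.31% called lower over all genes. Of 22 genes of ATF4 and amino acid supply, Trib3 (log2 1.92) and Ddit3 (log2 0.73), both induced by stress signals, were called higher, and neither was called without KO replicate 2 or without control replicate 2 (adjusted p of 0.0642 to 0.0962). Of 20 ribosome biogenesis genes, Utp20, Npm1 and Ncl were called lower, with Ncl (nucleolin) at 3088 to 3456 CPM in control and 2320 to 2709 CPM in KO libraries (log2 −0.39, adjusted p = 0.0109). Without KO replicate 2, KO replicate 3 or control replicate 1 this count was 1. Of 22 p53 targets and apoptosis regulators, Ccng1, cyclin G1, fell from 775, 741 and 737 CPM to 513, 466 and 483 CPM (log2 −0.62, SE 0.10, adjusted p = 4.57e-04), and Zmat3 was called lower (log2 −0.51), a call that ended on leaving out any library but KO replicate 3 (0.063 to 0.254). Of 30 genes of the respiratory chain Uqcrfs1 was called lower, a call that ended without control replicate 2 (0.0801). None of 25 genes of sterol and fatty acid synthesis or of 17 heat shock and chaperone genes was called.

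Markers of other cells were examined in the same way. Of 8 CD4 T cell markers only Cd28 was called, and Thy1, the pan-T cell antigen, was at 1757 to 1765 CPM in control and 1910 to 2081 CPM in KO libraries (log2 0.20, adjusted p = 0.237). Of 4 tested B cell and MHC class II genes H2-Ab1 was called higher (51.9, 31.6 and 40.6 CPM against 69.0, 89.6 and 73.4 CPM, log2 0.91, adjusted p = 0.0137), a call that ended without KO replicate 2 (0.0692) or control replicate 2 (0.102). The 13 measured genes of that list summed to 124 to 163 CPM in control and 182 to 204 CPM in KO libraries. Cd79a was at 0 in all 6. The 15 myeloid and dendritic cell genes summed to 84.2 to 94.3 against 110 to 115 CPM, with Ctss, which T cells also express, as the 1 gene tested, Lyz2 at 0 in all 6 libraries and 3 of the 15 at 0 in all 6. The 12 NK and CD8 T cell genes summed to 120 to 169 against 124 to 156 CPM with no call among 4 tested, and mast cell and erythroid genes stayed under the filter. These sums move with the KO group for the B cell and myeloid lists, and their part in the other results was not tested.

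Further genes with the largest changes by the rule for naming belong to no list. Serpina3f and Serpina3g, neighbouring protease inhibitor genes of similar sequence, were at 4.43 to 20.4 and 4.51 to 21.0 CPM in control and 57.6 to 101.2 and 39.8 to 70.4 CPM in KO libraries (log2 2.92 and 2.39). Igfbp4, which binds insulin-like growth factors, was at 34.0, 31.7 and 22.5 CPM against 110, 112 and 126 CPM (log2 1.96, SE 0.21, adjusted p = 1.08e-06). Fgl2, a fibrinogen-like protein secreted by T cells, was at 29.8, 20.2 and 13.9 CPM against 73.1, 70.1 and 71.1 CPM (log2 1.76, SE 0.26, adjusted p = 1.13e-04). Aqp9, a channel for water and glycerol, was at 3.16 to 4.85 CPM against 17.2 to 30.1 CPM (log2 2.34), and the interferon-inducible Samd9l (log2 2.11), the small GTPase gene Rab37 (log2 2.11) and the membrane protein gene Tmem176a (log2 1.76) rose too. Aqp9 passed the filter of 10 CPM through the KO libraries alone. On the falling side, Timp1, an inhibitor of metalloproteinases, was at 204, 196 and 165 CPM in control and 58.6, 62.0 and 55.2 CPM in KO libraries (log2 −1.67, SE 0.16, adjusted p = 2.65e-07). Pdgfa, a platelet-derived growth factor (log2 −1.86), Serpinb9b (log2 −1.97), Nkain1 (log2 −1.55) and the zinc finger gene Zfp677 (log2 −1.54) were lower as well. Calls ended without control replicate 1 for Serpinb9b (adjusted p = 0.0698) and Pdgfa (0.0516), without control replicate 2 for Pdgfa (0.16), Zfp677 (0.139) and Tmem176a (0.124), and without KO replicate 3 for Tmem176a (0.149).

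Within 20 Mb of Itgav on chromosome 2, 96 other genes were tested and 2 were called higher and 4 lower (6.25%, against 4.39% of all genes). They were Pdk1 (log2 0.97) and Trp53i11 (0.86) on the higher side and Nckap1 (−1.17), Ptprj (−0.89), Cd44 (−0.70) and Abtb2 (−0.47) on the lower side. Without control replicate 2 the call of Ptprj ended (adjusted p = 0.0681), and that of Abtb2 ended on leaving out any library but KO replicate 1 (0.0704 to 0.168).

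The KO effect in TH1 cells was then set against that in TH2 cells, in a fit of all 12 libraries with a mean for each group, to ask where the effects differed. The 2 comparisons share no library, but they share the mouse lines, and the labels do not say whether they share mice. They are therefore not independent in that respect. Of the 367 genes called in TH1 cells, 280 had the same sign in TH2 cells (76.3%), against 55.8% of all 8366 genes. Itgav itself fell by 2.22 (SE 0.25) on the log2 scale in TH2 cells, Isg20 rose by 2.43 (SE 0.45), Timp1 fell by 1.64 and Inhba fell by 1.79 there. A fit of the TH2 libraries alone called 125 genes, of which 27 were also called in TH1 cells (7.36% of the TH1 and 21.6% of the TH2 calls), 25 with the same sign. Itgav, Timp1 and Inhba were among the 27, and Isg20 was not. The test of the difference itself called 38 of 8366 genes (0.454%), 12 with the TH1 effect above the TH2 effect and 26 below. Of these counts, 1 gene in each direction remained without TH1 control replicate 1 or without TH1 control replicate 2, and none of the 38 was called without the variance trend.

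Ccr7 was the 1 gene of the 38 called without any single library of the 12. It fell in TH1 cells (log2 −0.70, SE 0.12) and lay higher in TH2 KO cells (356 against 558 CPM, log2 0.64, SE 0.12), a difference of −1.35 (adjusted p = 1.29e-03). Rgs2 fell by 1.81 in TH1 cells, while its TH2 means were 35.7 CPM with Itgav and 66.4 CPM without (difference −2.93, adjusted p = 0.0193). Cd83 and Il12rb2 also had TH1 effects below the TH2 effects (differences −1.83 and −1.13), as had Phxr4, the small GTPase gene Rab34 and Vps37b, a subunit of the ESCRT-I complex (−3.59, −3.40 and −1.93). In the other direction, Slamf6 rose by 2.98 in TH1 cells and had TH2 means of 16.8 CPM with Itgav and 11.8 CPM without (difference 3.25, adjusted p = 0.0303). Aqp9, up by 2.34 in TH1 cells, had TH2 means of 71.0 and 65.1 CPM (difference 2.44). Egr1 was lower in KO cells of both subsets, by 0.81 in TH1 and 2.38 in TH2 cells (difference 1.57, adjusted p = 0.0193). For Nkg7, a granule protein gene, Spp1, the gene of the αvβ3 ligand osteopontin, and B3galt2 the gene fell in TH2 cells (log2 −2.77, −2.95 and −3.52), and none of them was called in TH1 cells. Ccna2, up in TH1 cells, had TH2 means of 183 and 133 CPM (difference 1.06, adjusted p = 0.0366), and the medians of the mitosis list were 0.37 in TH1 and −0.43 in TH2 cells, which were not tested against each other.

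**Figure D5:**
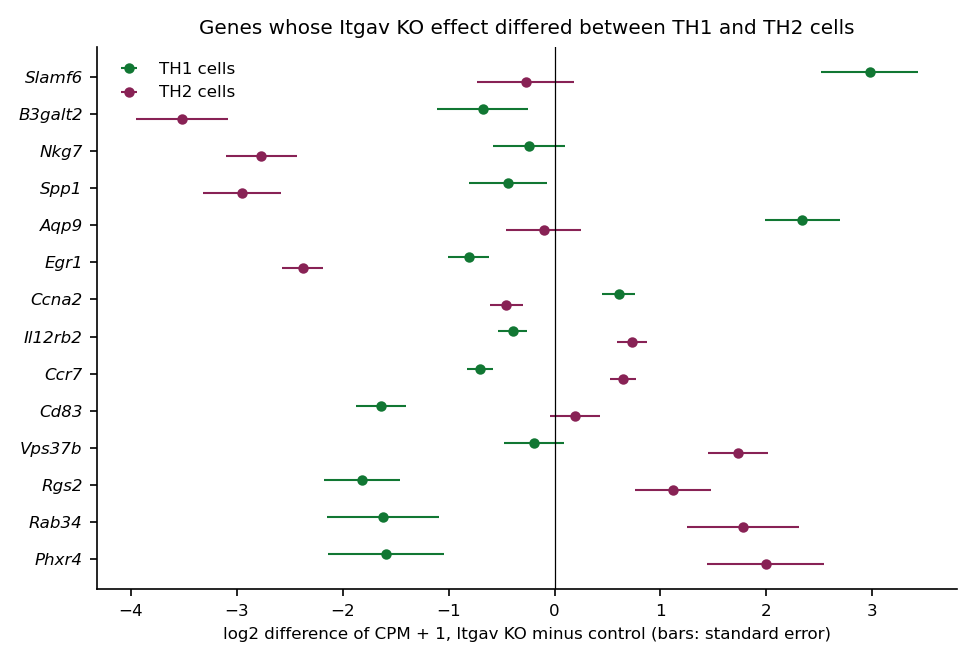
The log2 difference of CPM + 1, Itgav KO minus control, with its standard error, in TH1 cells (green) and TH2 cells (purple) for 14 named genes whose effects differed in the test over 12 libraries. Slamf6, Aqp9 and Ccna2 lie above 0 in TH1 cells, Rgs2, Cd83 and Ccr7 lie below 0 there, and Egr1 lies below 0 in both.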

How the data were processed

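RNA was extracted from sorted cells with a column kit, amplified to cDNA and sequenced as single reads of one end. The submitters' processing notes name Trim Galore 0.50, STAR 2.6.0a, the build GRCm38 and DESeq2 1.18.1 as what the authors used. Which program counted reads per gene, with what strand setting and annotation, is not given in the sources used here. For 26202 symbols the authors deposited CPM to which 0.0001 had been added, and 12 further value columns of a second sheet were not used. The offset was taken off. Low values were whole multiples of 1 step (100% of values up to 1000 reads, within 0.1 reads), which gave the depth. The reads recovered in this way were also used in the TMM and voom alternatives described below, and no count model was run. Between replicates, chi-square per degree of freedom was 21.0 to 33.1, so none was taken as a repeat deposit.

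Genes that reached 10 CPM in 3 or more of the 6 TH1 libraries were fitted with limma 3.58.1 in R 4.3.3 on log2(CPM + 1), letting the prior variance follow the mean level (4 residual and 20.3 prior degrees of freedom), two-sided, adjusted by Benjamini-Hochberg over 8366 genes at a threshold of 0.05. The difference between subsets was fitted over 12 libraries. Steps were tested on simulated data. The members, the tests and 40 gene lists were chosen with earlier results of these data known. The lists covered integrins and their partners, TH1, TH2 and other fates, activation, interferon, signalling, metabolism, cell cycle and other cell types, and are described by counts and medians. Named were Itgav, Itgb3, Ifng, Tbx21, Runx3, Isg20, Egr1, Nr4a1, Bcl2a1b, Egfr, Thy1, Il4, Il5, Il13 and Gata3, the 12 largest rises and falls among called genes without overlap whose higher group averaged 20 CPM or more (predicted genes, pseudogenes and receptor segments left out), up to 4 called members per list or the 2 highest where none was called, and the 5 largest differences between subsets in each direction. Some genes that this rule names are not reported here. Alternatives were pseudocounts of 0.5 and 5, a filter of 1 CPM or none, TMM (trims of 0.3 and 0.05) or quantile scaling, all 12 libraries, no trend, the replicate number as a block, voom on the recovered reads, and each library left out. Coordinates are those of the file, with its end column moved by 1 base. Promoter sequences are RefSeq's (GRCm38.p6), matched by symbol for 6815 of the 8366 genes.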

Additional observations from a re-analysis of the deposited data

Results flagged for a closer look

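The genes here were singled out because the test over all 12 libraries found their Itgav KO effect in TH1 cells to differ from that in TH2 cells, on the log2 scale of CPM + 1. The difference was −3.59 for Phxr4, −3.40 for Rab34, −2.93 for Rgs2, −1.93 for Vps37b, −1.83 for Cd83, −1.35 for Ccr7 and −1.13 for Il12rb2. It was 1.06 for Ccna2, 1.57 for Egr1, 2.44 for Aqp9, 2.51 for Spp1, 2.53 for Nkg7, 2.84 for B3galt2 and 3.25 for Slamf6. Leaving out each of the 12 libraries in turn, Ccr7 was called in all 12, Egr1 and Rgs2 in 9, Cd83 and Il12rb2 in 8, Nkg7 in 7, Slamf6 in 6 and Aqp9 in 5. Phxr4, Spp1 and Vps37b were called in 3 and B3galt2, Ccna2 and Rab34 in 2. For Phxr4, Vps37b, B3galt2, Nkg7 and Spp1 the TH1 effect was not called by itself.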

How the results depend on the processing

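The 174 higher and 193 lower calls in TH1 cells were within 1.5 times these counts under pseudocounts of 0.5 and 5, a filter of 1 CPM (162 and 170), TMM, quantile scaling and voom, the last chosen after seeing the data. They were 19 and 40 with no filter, 32 and 47 when all 12 libraries shared 1 estimate of the spread, and 17 and 21 with no variance trend. Leaving out a library gave 81 to 166 higher and 92 to 223 lower calls. Of 89 named calls, 66 were lost with no filter, 57 with all 12 libraries, 68 with no trend and 33 without control replicate 2. For the difference between TH1 and TH2 effects, 12 above and 26 below, the counts were 12 and 16 with TMM, 0 and 0 with no trend, 11 and 29 with a pseudocount of 5, and 1 to 23 and 1 to 35 with a library left out. The numbers of the libraries did not pair control with KO (correlation of the deviations 0.002, −0.005 and 0.002). With the replicate number as a block there were 206 higher and 241 lower calls, and 11 above and 15 below for the difference. Where a count changed, the cause was not tested. The 2 count models planned as alternatives were not run, and voom on the recovered reads took their place. Depth put 3 reads at 0.225 to 0.383 CPM, and genes under 10 CPM were tested only in the fits with a filter of 1 CPM or none, whose counts are given here.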
